A study of Homo sapiens with 6 samples.

Results

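Genes of mitosis and of the G2/M transition were followed in RNA-seq of L3.6pl cells, an established human pancreatic ductal adenocarcinoma (PDAC) line, sorted by FACS into L1low and L1high populations. These genes were 47 in number, taken by symbol from a written list of mitotic kinases, cyclins, kinetochore genes and spindle genes, and all 47 were found among the 19469 genes of the deposited count table. L1high cells (labelled L1CAM_POSITIVE) and L1low cells (labelled L1CAM_NEGATIVE) came from the same untreated line, kept in DMEM with fetal bovine serum, and differed by the level of the adhesion molecule L1CAM on their surface, so that neither group is a knockout. The paper gives the origin of L3.6pl as a metastatic lymph node and its carcinoma type as adenosquamous. Each group held 3 libraries. The labels do not say whether the libraries of a group came from separate cultures or sorts, so the p-values measure the spread between these libraries, which may be technical.

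To enter mitosis, a cell activates the kinase CDK1, which needs a cyclin A or cyclin B partner, a small CKS subunit and the removal of inhibitory phosphates by CDC25 phosphatases. Aurora, Polo and checkpoint kinases then govern spindle assembly and chromosome attachment at the kinetochore, and the anaphase-promoting complex (APC/C) ends mitosis by marking cyclins and securin for destruction. Transcripts of these genes build up in G2 and fall in early G1, through the MuvB complex with MYBL2 and FOXM1, which binds a promoter element called CHR (cell cycle genes homology region). Their promoters often also hold CCAAT boxes, the element bound by NF-Y. In a mixed population of dividing cells, such as a tumor line, their level is therefore often read as a sign of proliferation, while MKI67 is the gene of the Ki-67 antigen, the usual histological marker of cycling cells. In bulk RNA, fewer cells in G2 or mitosis and less RNA of these genes per cell cannot be told apart.

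The promoters of CDK1, MKI67, CKS2 and CENPF are printed here because CDK1 and CKS2 had the largest falls among the 47 genes, CENPF was the only one with 3 L1low libraries above 3 L1high, and MKI67 is the marker against which CDK1 was set. Each sequence is on the strand of its gene, from RefSeq on GRCh38.p14, and runs from 250 bases before to 50 bases after the start site. CDK1 lies at chr10:60778228-60778527 on the plus strand, MKI67 at chr10:128126374-128126673 on the minus strand, CKS2 at chr9:89310945-89311244 on the plus strand and CENPF at chr1:214602945-214603244 on the plus strand. Capitals mark the box CCAAT or, on the other strand, ATTGG. They also mark the CHR hexamer TTTGAA, which reads as TTCAAA on the other strand, and its palindromic form TTCGAA.
CDK1: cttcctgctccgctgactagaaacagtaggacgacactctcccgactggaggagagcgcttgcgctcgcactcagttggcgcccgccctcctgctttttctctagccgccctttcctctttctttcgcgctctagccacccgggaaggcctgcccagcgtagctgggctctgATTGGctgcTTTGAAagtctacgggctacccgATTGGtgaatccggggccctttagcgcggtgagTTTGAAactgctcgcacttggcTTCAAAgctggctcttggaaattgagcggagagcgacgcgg
MKI67: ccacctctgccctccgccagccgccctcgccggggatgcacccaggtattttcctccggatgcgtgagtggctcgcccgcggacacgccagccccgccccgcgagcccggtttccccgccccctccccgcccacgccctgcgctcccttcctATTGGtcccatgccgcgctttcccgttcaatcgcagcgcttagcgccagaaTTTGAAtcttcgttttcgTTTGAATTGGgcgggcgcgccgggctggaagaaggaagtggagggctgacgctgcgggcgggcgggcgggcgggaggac
CKS2: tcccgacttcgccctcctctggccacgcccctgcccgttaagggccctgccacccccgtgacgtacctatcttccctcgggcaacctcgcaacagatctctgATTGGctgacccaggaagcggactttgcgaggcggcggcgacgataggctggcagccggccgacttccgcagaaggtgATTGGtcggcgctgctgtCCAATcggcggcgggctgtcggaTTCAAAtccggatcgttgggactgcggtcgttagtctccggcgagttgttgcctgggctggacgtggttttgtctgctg
CENPF: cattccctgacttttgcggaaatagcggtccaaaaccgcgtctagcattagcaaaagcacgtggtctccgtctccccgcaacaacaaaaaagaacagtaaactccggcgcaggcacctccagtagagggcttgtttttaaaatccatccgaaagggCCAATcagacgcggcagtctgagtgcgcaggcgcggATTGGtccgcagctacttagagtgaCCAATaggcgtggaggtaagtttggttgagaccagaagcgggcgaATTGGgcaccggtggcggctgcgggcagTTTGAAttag

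All 4 promoters held both kinds of element. In CDK1, ATTGG began at positions -78 and -46 from the start site and TTTGAA at -69 and -13. In MKI67, TTTGAA began at -47 and -29, and the second of these ran into an ATTGG that began at -24. In CKS2, TTCAAA began at -29, whereas the TTTGAA of CENPF began at 41, inside the transcribed part. RefSeq promoters were matched for 41 of the 47 genes (not in the table: AURKA, BIRC5, CDCA2, TPX2, TTK and UBE2C), taking the one nearest to the start of the Ensembl canonical transcript. A CHR hexamer on either strand stood in 32 of these 41 windows (78.0%), against 11.0% of the 11536 genes of the count table matched in the same way and 16.4% of all 35116 RefSeq promoters. The box CCAAT, or ATTGG, stood in 31 (75.6%), against 36.6% and 34.6%. Both stood in 27 (65.9%), against 4.71% and 6.38%. Among the 13 matched genes called lower in L1low cells 10 held a CHR hexamer (76.9%), and among the 28 not called 22 did (78.6%). These letters are a description of the windows and say nothing of which factor was bound.

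As a check of the sort, L1CAM itself stood at 84.0, 69.8 and 89.5 CPM (the read count normalised to library size, with TMM scaling) in L1high cells and at 17.7, 23.7 and 19.99 CPM in L1low cells, as values of replicates 1, 2 and 3 in this order, which is kept throughout. The libraries held between 16334610 and 21064685 counts, the lowest being L1high replicate 3. The comparison table of the study uses L1low replicates 1, 2 and 3 against L1high replicates 1 and 2, with no reason given, so the tests were run over these 5 libraries and then over all 6. All 8 epithelial markers were in the table, with a summed level of 4630 to 5250 CPM in L1high and 5140 to 5530 CPM in L1low cells; EPCAM was lower and KRT19 higher in L1low cells. Of 8 fibroblast markers only LUM, which was higher in L1low cells, and COL3A1 were in the table (summed level 79.9 to 90.8 CPM in L1high and 131 to 151 CPM in L1low cells), without PDGFRA, PDGFRB, DCN, COL1A2, THY1 or FAP, and of 8 immune and 4 endothelial markers 1 each (CD68 and PECAM1). Of 12 genes that respond to dissociation and sorting stress, 5 were higher (ATF3, FOSB, IER2, EGR1 and FOS) and 1 was lower (HSPA8) in L1low cells. Of all genes 4.41% were higher and 3.15% lower over the 5 libraries. The summed level of the 12 stress genes was 10300 to 10900 CPM in L1high and 11800 to 12500 CPM in L1low cells. Whether this stress signal has a part in the levels of the mitotic genes was not tested.

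The mitotic genes took a smaller share of the reads in L1low than in L1high cells, and none of them was called higher. The 47 genes took 1.02, 1.05 and 0.986% of the counts in L1high cells and 0.915, 0.880 and 0.869% in L1low cells, and the groups did not overlap. Over the 5 libraries 15 of the 47 genes were called lower in L1low cells and 0 were called higher, by edgeR's quasi-likelihood test at an adjusted p under 0.05 after Benjamini-Hochberg adjustment over all genes. Of all 19469 genes 3.15% were called lower and 4.41% higher in this comparison. Among the 6980 genes whose average log2 CPM reached 5, where all 47 stood, 4.76% were called lower and 7.34% higher. At an unadjusted p under 0.05, 30 of the 47 were lower and 1 was higher, CENPF, against 11.2 and 12.1% of all genes.

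The log2 fold change (L1low over L1high) was negative for 44 of the 47 genes and positive for MKI67, PSRC1 and CENPF. Its median was -0.23 over the 47 and 0.00 over all genes tested. Over all 6 libraries 15 genes were again called lower and 0 higher, where 3.37% of all genes were called lower and 4.58% higher, and 12 genes were called in both comparisons. CDK1, CKS2, CCNA2, NUF2, NUSAP1, TMPO, UBE2C, CKAP2L, BUB1, AURKA, KIF23 and BUB1B are these 12. HMMR, LBR and ECT2 were called over the 5 libraries alone, and CCNB1, CDCA3 and CDC25B over all 6 alone. The 3 L1low libraries all lay below the 3 L1high libraries for 29 of the 47 genes, as they did for 13.7% of all genes, and all above them for 1, CENPF, as for 15.2% of all genes. Counts of calls depended on single libraries. When L1low replicate 2 was left out of the 5 libraries, 2 of the 47 were called (CDK1 and CKS2), and 1.08% of all genes were called lower. When L1high replicate 1 was left out of all 6, 3 of the 47 and 1.28% of all genes were called lower. Leaving L1high replicate 2 out of all 6 gave 9 of the 47 and 2.92% of all genes. The 5 libraries without L1low replicate 1 gave 21 of the 47 and 3.91% of all genes, and without L1low replicate 3, 15 and 3.64%.

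**Figure D1:**
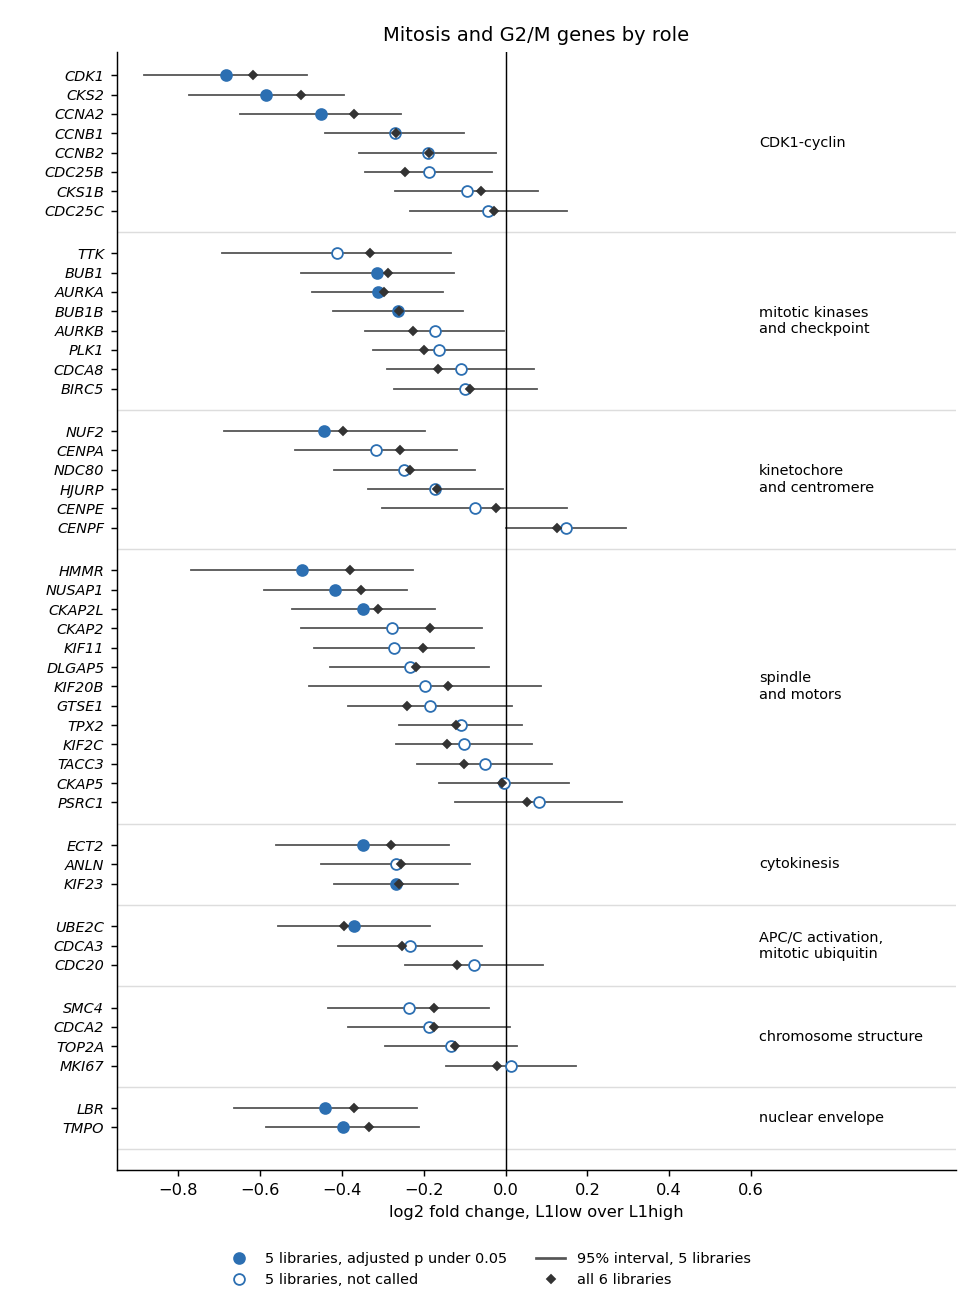
The log2 fold change of each of the 47 genes (x axis, L1low over L1high, positive means higher in L1low cells) is drawn by role, with circles and 95% intervals from the 5 libraries, filled where the adjusted p was under 0.05, and diamonds from all 6 libraries. Filled circles all lie left of 0, from CDK1 at -0.68 to BUB1B at -0.26, and MKI67, PSRC1 and CENPF are the 3 circles right of 0.

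CDK1 and its partner CKS2 had the largest falls of the 47 genes. The role of CDK1 and its direct partners held 8 genes. Beside the calls in this and the other roles stand the shares of all genes called lower, 3.15% over the 5 libraries and 3.37% over all 6. Over the 5 libraries 3 of them were called (CDK1, CKS2 and CCNA2), and over all 6 libraries 5, none higher. The median log2 fold change of the role was -0.23, as it was over all 47 genes. CDK1 (ENSG00000170312, chromosome 10 from 60778331 to 60794852, GRCh38) stood at 204, 216 and 177 CPM in L1high cells and at 143, 132 and 115 CPM in L1low cells. Every L1low library was below every L1high library. Its log2 fold change over the 5 libraries was -0.68 (standard error, SE, 0.09, 95% interval -0.88 to -0.49, adjusted p = 5.9e-04 by edgeR), a change of -37.8%, and -0.62 over all 6 (adjusted p = 0.0019).

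CKS2, a small protein that binds CDK1, had 88.2, 100.3 and 76.6 CPM in L1high and 59.0, 64.2 and 64.3 CPM in L1low cells, again without overlap. Its log2 fold change was -0.58 (SE 0.09, adjusted p = 0.0014 by edgeR). The other CKS gene, CKS1B, was not called at -0.10 (95% interval -0.27 to 0.08), and its reads are uncertain because 4 processed pseudogenes named after it are in the table, the most abundant of them, CKS1BP3, with 77.4% of its count. Cyclin A2 (CCNA2), which partners CDK2 in S phase and CDK1 in G2, fell by 0.45 on the log2 scale, from 132, 151 and 115 CPM to 111, 102 and 94.99 CPM (adjusted p = 0.0094 by edgeR). EXOSC9 overlaps CCNA2 on the opposite strand, with 54.0% as many counts and a log2 fold change of -0.40 (adjusted p = 0.011 by edgeR). The strand setting of the counting is not known, so the level of CCNA2 is uncertain.

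The mitotic cyclins lay near the threshold or short of it. Cyclin B1 (CCNB1) was just outside the threshold over the 5 libraries (log2 fold change -0.27, adjusted p = 0.053) and inside it over all 6 (-0.27, adjusted p = 0.031, edgeR), and cyclin B2 (CCNB2) was not called in either, at -0.19 in both. CDC25B and CDC25C, phosphatases that activate CDK1, did not pass the test over the 5 libraries. CDC25B had a log2 fold change of -0.19 but was called over all 6 (-0.24, adjusted p = 0.045, edgeR). CDC25C stood at 53.7, 56.0 and 52.2 CPM in L1high and at 51.6, 50.9 and 56.5 CPM in L1low cells, with overlap and a log2 fold change of -0.04 (95% interval -0.23 to 0.15).

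**Figure D2:**
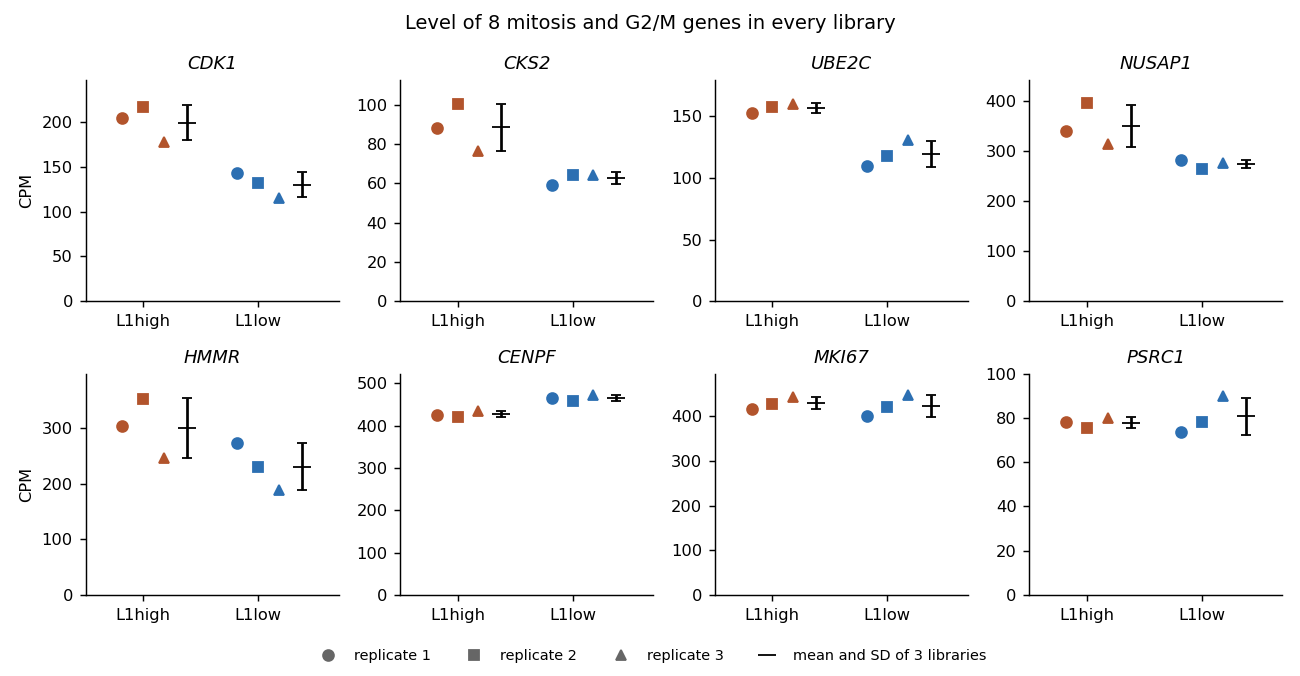
Levels of 8 of the 47 genes are shown in CPM (y axis, from 0) for every library, with replicates 1, 2 and 3 as circle, square and triangle and the mean and SD of the 3 libraries of each group beside them. CDK1, CKS2, UBE2C and NUSAP1 are lower in every L1low library, HMMR overlaps, CENPF is higher in every L1low library (459 to 473 CPM against 421 to 436 CPM), and MKI67 and PSRC1 overlap.

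MKI67 did not pass the test in either comparison. Its protein coats mitotic chromosomes and is absent from quiescent cells. MKI67 (ENSG00000148773, chromosome 10 from 128096659 to 128126423, minus strand) had 417, 426 and 444 CPM in L1high and 400, 421 and 448 CPM in L1low cells, and the groups overlapped. Its log2 fold change was 0.01 (SE 0.07, 95% interval -0.15 to 0.17, adjusted p = 0.93 by edgeR) over the 5 libraries and -0.02 over all 6. This interval and that of CDK1 do not meet.

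Set against MKI67 within each library, where no scaling between libraries enters, CDK1 counts were 0.490, 0.508 and 0.400 of MKI67 counts in L1high cells and 0.356, 0.314 and 0.258 in L1low cells. On the log2 scale the ratio was -1.11 ± 0.19 in L1high and -1.71 ± 0.24 in L1low cells (SD, n = 3 each), a difference of -0.60 with p = 0.1 in a two-sided exact permutation test, which is the smallest p that 3 against 3 libraries can give. The groups did not overlap. Over the 5 libraries the difference was -0.70 (exact permutation p = 0.1, again the smallest possible). Replicate 3 had the lowest ratio of its group in both populations. CDK1 and MKI67 differ in GC content (35.4 and 48.3%) and in canonical transcript length (1889 and 12716 bases). The ratio is corrected for neither. When the fit over the 5 libraries took GC content and length as offsets, CDK1 stood at -0.43 and MKI67 at -0.11 on the log2 scale, closer together than the -0.68 and 0.01 without them.

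**Figure D3:**
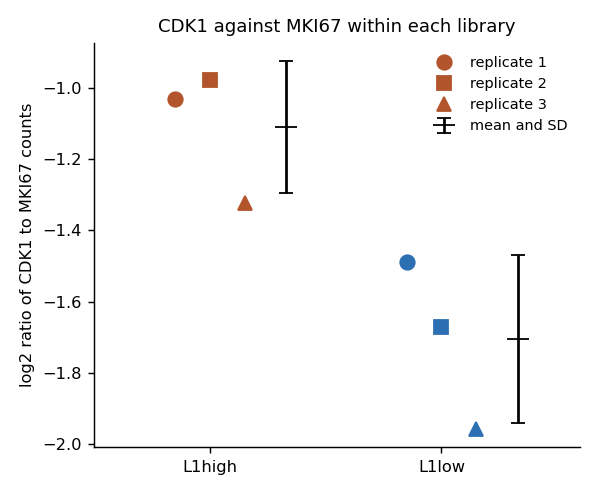
The log2 ratio of CDK1 to MKI67 counts (y axis) is plotted for the 3 L1high and 3 L1low libraries, with the mean and SD of each group. L1high libraries lie between -1.32 and -0.98 and L1low libraries between -1.96 and -1.49.

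Of the 8 mitotic kinases and checkpoint genes 3 were called lower in both comparisons (BUB1, AURKA and BUB1B), none higher, with a median of -0.22. Aurora A (AURKA), which acts at centrosomes and spindle poles, had 201, 205 and 193 CPM in L1high and 160, 158 and 171 CPM in L1low cells, and its log2 fold change was -0.31 (adjusted p = 0.023 by edgeR). BUB1 and BUB1B, components of the spindle assembly checkpoint, had log2 fold changes of -0.31 and -0.26 and sat just inside the threshold (adjusted p = 0.044 and 0.048 by edgeR). TTK, the kinase that starts checkpoint signaling, had the most negative log2 fold change of this role, -0.41, but its libraries overlapped: 137, 163 and 123 CPM in L1high against 135, 109 and 93.2 CPM in L1low cells, with an adjusted p of 0.073 by edgeR.

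Of the chromosomal passenger complex, which corrects faulty attachments, AURKB, BIRC5 and CDCA8 were measured among the 47, and none of them was called over the 5 or the 6 libraries. AURKB, the kinase, had a log2 fold change of -0.17 (called at -0.22 with offsets for GC content and length, adjusted p = 0.039 by edgeR), CDCA8 (borealin) -0.11 and BIRC5 (survivin) -0.10. BIRC5 was the least negative of the role, with 131, 142 and 131 CPM in L1high and 131, 130 and 120 CPM in L1low cells (95% interval -0.27 to 0.08). PLK1, the Polo kinase, stood at -0.16 (adjusted p = 0.21, edgeR).

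Kinetochore and centromere genes held both a called fall and the only gene that was higher in every L1low library. Of 6 genes 1 was called, NUF2, in both comparisons, and the median was -0.21. NUF2, a subunit of the Ndc80 complex that grips microtubules, had 135, 144 and 124 CPM in L1high and 118, 102 and 85.1 CPM in L1low cells, with a log2 fold change of -0.44 (SE 0.11, adjusted p = 0.033 by edgeR). Its partner NDC80 was not called, at -0.25 (adjusted p = 0.084). CENPA, the histone H3 variant of centromeres, was just outside the threshold at -0.32 (adjusted p = 0.054, edgeR), HJURP, the chaperone that loads it, stood at -0.17, and the kinetochore motor CENPE at -0.07.

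CENPF, a large protein of the outer kinetochore and nuclear envelope in G2, had 425, 421 and 436 CPM in L1high and 466, 459 and 473 CPM in L1low cells. All L1low libraries were above all L1high libraries. The difference of 0.15 on the log2 scale (95% interval 0.00 to 0.30) did not pass the adjusted threshold (adjusted p = 0.21 by edgeR over the 5 libraries and also over all 6).

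Spindle and motor genes were the largest role, with 13 genes and a median of -0.20. Over the 5 libraries 3 were called lower (HMMR, NUSAP1 and CKAP2L), over all 6 libraries 2 (without HMMR), and none higher. HMMR, a microtubule-binding protein of spindle poles, had 303, 351 and 245 CPM in L1high and 273, 230 and 188 CPM in L1low cells, a spread within each group that was wide enough for overlap. Its log2 fold change was -0.50 (SE 0.13, adjusted p = 0.031 by edgeR) over the 5 libraries, while all 6 gave -0.38 (adjusted p = 0.12). NUSAP1, which bundles spindle microtubules, fell from 339, 395 and 313 CPM to 281, 264 and 276 CPM, by 0.42 on the log2 scale (adjusted p = 0.0078 by edgeR). A second gene of the table, ENSG00000285920, overlaps NUSAP1 on the same strand. It held 95.2% of the NUSAP1 count, with a log2 fold change of -0.44. How reads shared by the pair were assigned is not known, so both levels are uncertain.

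CKAP2L, a spindle pole protein, had a log2 fold change of -0.35 (adjusted p = 0.021, edgeR), with 75.4, 77.7 and 69.3 CPM in L1high and 60.8, 60.8 and 57.8 CPM in L1low cells. Its relative CKAP2 stood at -0.28 with overlapping libraries. The bipolar spindle motor KIF11 stood at -0.27, the spindle assembly protein DLGAP5 at -0.23, the motor KIF20B at -0.20, GTSE1 at -0.19, the AURKA activator TPX2 at -0.11, the microtubule depolymerase KIF2C at -0.10 and TACC3 at -0.05, none of them called. The microtubule polymerase CKAP5 was at 0.00 (95% interval -0.16 to 0.16), and its 6 libraries spanned 220 to 238 CPM.

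PSRC1, which helps to align chromosomes, was the highest of the spindle genes, with 78.0, 75.3 and 80.1 CPM in L1high and 73.6, 78.3 and 90.0 CPM in L1low cells. L1low cells held both the lowest value (replicate 1) and the highest (replicate 3), with the L1high libraries between them. The log2 fold change was 0.08 (95% interval -0.12 to 0.29).

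All 3 cytokinesis genes had every L1low library below every L1high library, as did 13.7% of all genes, with a median of -0.27. ECT2, the exchange factor that starts the cleavage furrow, had 294, 299 and 250 CPM in L1high and 248, 248 and 198 CPM in L1low cells, and was called over the 5 libraries (-0.35, adjusted p = 0.048 by edgeR) but not over all 6 (-0.28, adjusted p = 0.11). KIF23, the motor of the central spindle, had 305, 318 and 302 CPM in L1high and 257, 255 and 259 CPM in L1low cells. These 3 L1low values lay close together, and KIF23 was called in both comparisons at -0.27 and -0.26 (adjusted p = 0.036 and 0.018 by edgeR), but neither ECT2 nor KIF23 was called with offsets for GC content and length. ANLN, the scaffold of the contractile ring, was not called at -0.27 (adjusted p = 0.074).

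Among genes of APC/C activation and mitotic ubiquitin transfer UBE2C was called in both comparisons. UBE2C, the ubiquitin-conjugating enzyme of the APC/C, had 153, 157 and 160 CPM in L1high and 109, 118 and 131 CPM in L1low cells. Its log2 fold change was -0.37 (SE 0.09, adjusted p = 0.020 by edgeR) over the 5 libraries, while all 6 gave -0.39 (adjusted p = 0.0080). CDCA3, which promotes the destruction of the CDK1 inhibitor WEE1, stood at -0.23 and was called over all 6 libraries (-0.25, adjusted p = 0.048, edgeR). CDC20, the activator of the APC/C in mitosis, had 155, 146 and 161 CPM in L1high and 137, 138 and 149 CPM in L1low cells, with a log2 fold change of -0.08 (95% interval -0.25 to 0.09). A processed pseudogene, CDC20P1, held 59.6% as many counts as CDC20, which makes the level of CDC20 uncertain.

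Genes of chromosome structure were not called in either comparison, and all 4 overlapped between the groups. SMC4, a core subunit of condensin, had 462, 490 and 407 CPM in L1high and 449, 396 and 359 CPM in L1low cells, with a log2 fold change of -0.24 (95% interval -0.44 to -0.04, adjusted p = 0.14 by edgeR). Topoisomerase II alpha (TOP2A), which untangles sister chromatids and had the highest CPM of the 47 genes, spanned 887 to 943 CPM in L1high and 795 to 899 CPM in L1low cells, at -0.13. CDCA2, a phosphatase-targeting protein of anaphase chromatin, stood at -0.19.

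Both genes of the nuclear envelope fell, with a median of -0.42. LBR, the lamin B receptor, had 101, 103 and 85.3 CPM in L1high and 80.8, 79.6 and 63.4 CPM in L1low cells, and its call over the 5 libraries (-0.44, adjusted p = 0.023 by edgeR) was missed over all 6 (-0.37, adjusted p = 0.052). TMPO, the gene of lamina-associated polypeptide 2, had 204, 229 and 185 CPM in L1high and 172, 169 and 150 CPM in L1low cells. The groups did not overlap, and TMPO was called over the 5 libraries (-0.40) and also over all 6 (-0.34), with adjusted p of 0.015 and 0.038 by edgeR.

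Within the threshold lay BUB1, BUB1B and ECT2, and just outside it CCNB1 and CENPA, with adjusted p between 0.044 and 0.054. These 5 genes differ little in size of change (-0.35 to -0.26). CDK1 and CKS2 were called in 17 of 17 fits, counting the alternatives of processing, UBE2C in 16, AURKA and NUSAP1 in 15, and 18 of the 47 genes in none. These fits share libraries and are not independent, and the fit with no filter repeats the main fit.

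Normalized to transcript length, the 47 genes spanned from 11.5 (CENPE) to 181 (CCNB1) CPM per kb of canonical transcript, as the mean of the 6 libraries. CCNB1, UBE2C, TPX2, TOP2A and CDC25B headed this order at 150 or more, CDK1 was in place 14 with 87.2, and MKI67 in place 36 with 33.5. Genes with large falls were spread along the order, as CKS2 stood at 122, HMMR at 87.9, CCNA2 at 42.8 and LBR at 22.8 CPM per kb.

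The fold changes followed the GC content of the transcripts. Across the 47 genes Spearman's correlation of GC content with the log2 fold change was 0.52 over the 5 libraries and 0.33 over all 6. Across all 19344 annotated genes it was 0.34 over the 5 libraries, and across the 19342 tested over all 6 it was 0.215. These points share the same libraries and are not independent replicates. The 24 genes with the lower GC content (34.3 to 42.1%) had a median of -0.30 and 12 calls, and the 23 with the higher (43.1 to 59.1%) a median of -0.16 and 3 calls. The median GC content of the 47 genes was 42.1%, against 48.5% of all annotated genes, and the class of all genes (of 10 by GC content) with a median of 42.3% had a median log2 fold change of -0.08. The class lowest in GC content (median 37.1%) had a median log2 fold change of -0.17, and the highest (64.3%) one of 0.12. Of all genes 3.15% were called lower over the 5 libraries, a share that is not split by GC content here.

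With offsets for GC content and length in the fit, 19 of the 47 genes were called lower and 0 higher, where 4.95% of all genes were called lower and 5.19% higher, and the median of the 47 was -0.17. ECT2 and KIF23 lost their calls in this fit (adjusted p = 0.081 and 0.064), so that 0 of the 3 cytokinesis genes was called, and CDC25B, CDCA3, CENPA, GTSE1, AURKB and PLK1 gained one. CDK1 stood at -0.43 (adjusted p = 2.8e-04), CKS2 at -0.45 (adjusted p = 0.0011), UBE2C at -0.38 (adjusted p = 0.0010) and MKI67 at -0.11 (adjusted p = 0.23, edgeR). CDK1, at 35.4% GC, moved by more between the fits than UBE2C, at 51.1%. The lower-GC and higher-GC genes then had medians of -0.18 and -0.14, with 10 and 9 calls.

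**Figure D4:**
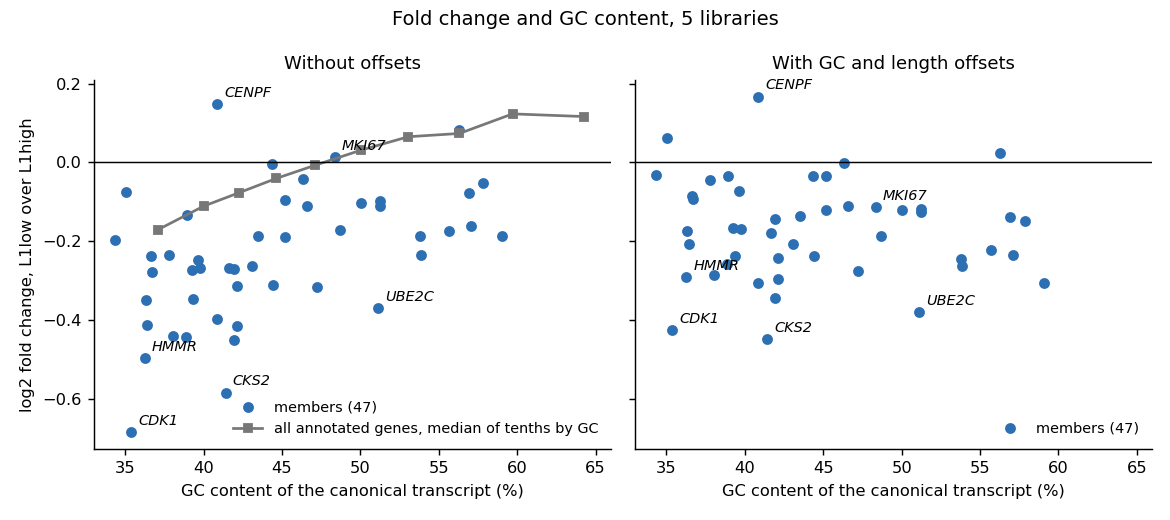
The log2 fold change over the 5 libraries (y axis) is plotted against the GC content of the canonical transcript (x axis, %) for the 47 genes, without offsets on the left, where squares give the median of all annotated genes in 10 classes of GC content, and with offsets on the right. Without offsets most of the 47 lie below the line of all genes, and CDK1 at 35.4% GC is the lowest point at -0.68; with offsets CKS2 at -0.45 and CDK1 at -0.43 are the lowest.

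Other genes of the cell cycle were counted in the same way. Beside these counts stand the shares over all genes, 3.15% lower and 4.41% higher over the 5 libraries. Over all 6 libraries 3.37% of all genes were lower. Of 22 further CDK1 regulators and members of the MuvB, MYBL2 and FOXM1 program 2 were lower and 0 higher, with a median of -0.10. CDC25A, another activating phosphatase, had the larger fall, with 23.0, 22.8 and 24.9 CPM in L1high and 15.9, 15.5 and 18.3 CPM in L1low cells (-0.46, adjusted p = 0.031 by edgeR). Of 17 APC/C subunits and partners 1 was lower, FBXO5 (EMI1), the inhibitor of the APC/C before mitosis, which fell from 38.04, 41.2 and 38.9 CPM to 28.2, 27.4 and 26.4 CPM (-0.53, adjusted p = 0.0057). None of the 20 genes of condensin, cohesin and separase was called by edgeR (3 lower at an unadjusted p under 0.05, 1 called by DESeq2), with a median of -0.08.

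Of 34 other kinetochore and checkpoint genes 6 were lower over the 5 libraries and 2 over all 6, with a median of -0.21. SKA3, a kinetochore protein that holds on to microtubules, had the largest of these falls, from 43.2, 52.4 and 38.9 CPM to 32.3, 33.4 and 31.5 CPM (-0.55, adjusted p = 0.0066 by edgeR). Of 25 other spindle, motor and cytokinesis genes 2 were lower over the 5 libraries and 3 over all 6, with a median of -0.19, and KNSTRN, a spindle and kinetochore protein, had the larger fall of the 2, from 168.2, 167.5 and 168.4 CPM to 128.9, 128.8 and 149.2 CPM (-0.30, adjusted p = 0.048).

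Of 50 genes of DNA replication and its control 14 were lower and 0 higher over the 5 libraries and 17 lower over all 6, with a median of -0.22. RRM2, the ribonucleotide reductase subunit that limits nucleotide supply, had the largest fall, from 254, 284 and 248 CPM to 182, 173 and 176 CPM (-0.59, adjusted p = 4.5e-04 by edgeR). Of 13 G1 cyclins, CDKs and CDK inhibitors that were in the table only 1 was lower, CDKN3, a phosphatase of CDKs, from 80.7, 85.3 and 70.97 CPM to 71.1, 63.6 and 64.4 CPM (-0.31, adjusted p = 0.043), and over all 6 libraries 1, CCND3, with a median of -0.06. CCND2 and CDKN1C were not in the table. None of these lists shares a gene with the 47, and their difference from them was not tested.

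**Figure D5:**
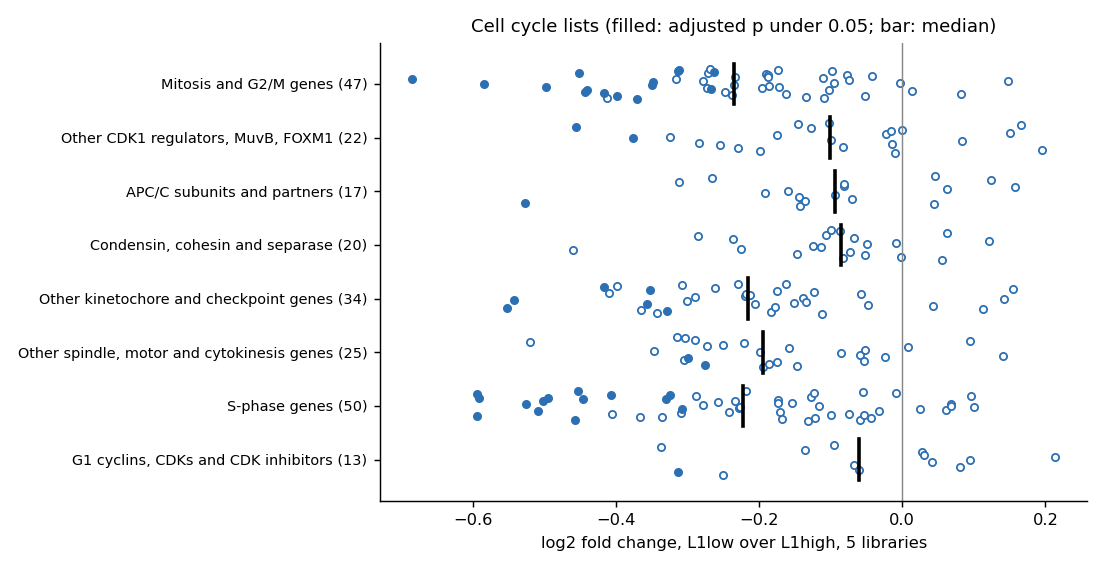
Each point is a gene, placed by its log2 fold change over the 5 libraries (x axis), in rows for the 47 mitosis and G2/M genes and 7 other cell cycle lists, filled where the adjusted p was under 0.05, with a bar at the median. Medians lie at -0.23 for the 47 genes, -0.22 for S-phase genes and -0.06 for G1 genes, and filled points all lie left of 0.

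Some of the 47 genes share sequence or position with other genes of the table. Pseudogenes named after 6 of them were counted, 12 in all, of which AURKAP1 held 16.7% as many counts as AURKA. In all, 16 of the 47 overlap 23 other genes, on the opposite strand for 14 and on the same strand for 3 (NUSAP1, BUB1B and CENPA). BUB1B lies within the read-through gene BUB1B-PAK6, which held 28.3% as many counts and had a log2 fold change of -0.19, and CENPA overlaps SLC35F6, at 0.22. Of the genes on the opposite strand, EXOSC9 held 54.0% as many counts as CCNA2, and FAM53C 124% as many as CDC25C. CDK1 and MKI67 had neither an overlapping gene nor a pseudogene in the table. The strand setting of the counting is not given in the sources used here, so values of overlapping genes are uncertain.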

How the data were processed

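RNA of FACS-sorted L3.6pl cells was sequenced as paired-end reads of stranded mRNA libraries, 3 L1high and 3 L1low. The authors aligned the reads to GRCh38 with BWA, which does not place reads across splice junctions, counted them with featureCounts on Ensembl 94 gene models and deposited the read counts unnormalized. Versions and the strand and multi-mapping options are not given in the sources used here. The deposited sample labels write the line as L6.6pl, while titles and paper write L3.6pl. All 19469 genes exceed 1 CPM in at least 2 libraries; rarer genes cannot be assessed.

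The 2 populations were tested with edgeR 4.0.16 in R 4.3.3 (TMM factors, filterByExpr, quasi-likelihood test, Benjamini-Hochberg adjustment over all genes tested, calls at an adjusted p under 0.05). The main comparison used the 5 libraries of the comparison table of the study, and all 6 libraries stand beside it. Standard errors are the log2 fold change divided by the square root of F, with 95% intervals from the t distribution. CPM use TMM factors over all 6 libraries. CPM per kb, GC content and positions came from the canonical transcripts of GENCODE release 44, which matched 19344 of the 19469 identifiers; the other 125 held 0.315% of counts. The ratio of CDK1 to MKI67 used counts plus 0.5. The fit was tested on simulated data. The median standard error was 0.08 for the 47 genes, 0.09 for all genes whose average log2 CPM reached 5 and 0.13 for all genes. No 2 libraries of the same group were alike within sampling noise (the lowest chi-square per degree of freedom was 3.66). Pairs across the groups were not compared in this way.

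The 47 genes, their roles, the other lists and the alternatives were chosen with earlier results of these data known. Values in every library were given by rule for CDK1, MKI67 and the lowest and highest gene of each role, and from each other list for the called gene with the largest change; those of CKS2, CCNA2, AURKA, NUSAP1 and CKAP2L, and the choice of CKS2 and CENPF for their promoters, were added after their values were seen. The columns of fold changes and p-values of the authors were not used.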

Additional observations from a re-analysis of the deposited data

How the results depend on the processing

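Under 16 alternatives of the fit (all 6 libraries, each replicate left out, the replicate block, DESeq2 1.42.0, edgeR's exact test, 3 other scalings, 2 other filters, GC and length offsets) 654 of 752 values of the 47 genes held both sign and call, 43 lost and 38 gained a call, and 17 changed sign. Some of this agreement was fixed in advance. With no filter the same 19469 genes were tested as in the main fit, so that this alternative could not differ from it. In the replicate block over the 5 libraries L1low replicate 3 stood alone in its block and had no part in the fold changes. For 41 genes the sign was negative under every alternative. CDK1 ran from -0.76 to -0.43 and was called under each. The count of genes called lower ran from 2 to 21 with a replicate left out. From the 5 libraries it was 2 without L1low replicate 2, 15 without L1low replicate 3 and 21 without L1low replicate 1 (3.91% of all genes). From all 6, so that L1high replicate 3 was in, it was 3 without L1high replicate 1 and 9 without L1high replicate 2. Without L1low replicate 2, 551 of all genes were called, without L1high replicate 1, 674, and the range with a replicate left out was 551 to 1649. No gene of the 47 was called higher under any alternative. The cause was not tested. The median of the 47 was -0.17 with GC and length offsets.

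MKI67 changed sign to -0.020 over all 6 libraries, -0.006 with library totals, -0.114 with GC and length offsets, and -0.028 (5 libraries) and -0.021 (all 6) with the replicate block; with a replicate left out it ran from -0.040 to 0.051. None of these passed the threshold. With a replicate left out CKAP5 ran from -0.038 to 0.016, CENPE from -0.182 to 0.019, PSRC1 from -0.003 to 0.142 and CDC25C from -0.088 to 0.000. The replicate block gave 0.016 for CENPE and -0.003 for PSRC1, and the offsets 0.062 for CENPE.

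Same-numbered libraries deviated together with correlations of 0.117, 0.097 and 0.292, not all of them over 0.1, so the number was not taken as a pairing. L1high replicate 2 correlated best with L1low replicate 1 (0.106). Replicate 3 of either group correlated negatively with replicates 1 and 2 of the other (-0.20 to -0.15). An effect shared by same-numbered libraries is therefore left in the main fit, and the replicate block stands beside it. With the replicate block 14 of the 47 were called lower over the 5 libraries (4.02% of all genes) and 22 over all 6 (5.87%), where 2363 of all genes were called in either direction. DESeq2 left 3397 adjusted p-values empty and called 18 of the 47 and 3.48% of all genes lower. The difference in the log2 ratio of CDK1 to MKI67 was -0.60, -0.70 over 5 libraries and -0.59 with CPM plus 1. GC and length offsets were not applied to this ratio.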
